A study of Homo sapiens with 6 samples.

Results

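The genes described here, 5 in number, act in the response of human cells to viral RNA: the sensors TLR3, IFIH1 and RIGI, the enzyme UBA7 and the apoptosis regulator XAF1. They were taken by symbol from the platform annotation of a microarray series, where they are 5 of 14884 named genes, and each is carried by 1 of the 53617 probe sets. The 5 were selected on their measured log2 difference between exposed and unexposed cells of this same series, where all stood higher in exposed cells, so their differences between the groups are a description and carry no p-value. The cells were U-87 MG, a long-used line grown from a human glioblastoma, and total RNA of whole cultures was measured, so that a change in the RNA of each cell and a change in the share of cells that carry it cannot be told apart. The 3 exposed cultures were kept for 54 h, from 24 h after seeding, under electromagnetic fields (RGFIELDS) aimed at hsa-miRNA-381, a mutated alpha-kinase 2 gene, HSP70 and CHI3L1, in a culture box within a Faraday chamber. The 3 unexposed cultures stood in a box outside that chamber, so field and box cannot be told apart. Groups follow the sample titles and source names; the free-text description of the exposed samples carries the words exposed and control together. Neither group received viral RNA or interferon, as far as the labels state. Both groups come from 1 cell line, and the labels call the 3 samples of each group independent biological replicates.

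Cells recognise viral RNA in separate compartments. TLR3 lies in endosomal membranes, binds double-stranded RNA and signals through the adaptor TICAM1. RIGI (RIG-I) and IFIH1 (MDA5) are cytoplasmic helicases that bind viral RNA and signal through MAVS on mitochondria. Both routes activate the kinase TBK1 and the factors IRF3 and IRF7, which switch on interferon genes, and secreted interferon then acts through its receptor and JAK kinases to raise many antiviral genes, the sensors among them. UBA7 is the activating enzyme that starts the attachment of ISG15, a ubiquitin-like protein, to other proteins. XAF1 is an interferon-inducible zinc finger protein that antagonises XIAP, an inhibitor of caspases.

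Values are log2 expression from RMA (a procedure that removes background, brings the arrays to 1 distribution and summarises several probes into 1 value), so a difference of 1 is a 2.00-fold change. Probe sets differ in how strongly they respond, and levels of different genes are therefore not compared. Shares of probe sets with lower values, given below, are only a rough guide to signal. Array medians lay between 3.96 and 3.99, and the arrays of 1 group (r = 0.985 to 0.988 over all probe sets) were hardly more alike than arrays of different groups (0.982 to 0.987). On the first principal component, which held 28.0% of the variance, unexposed replicate 2 lay farthest out, at -47.2 against -22.2 and -15.3 for the other unexposed arrays, and the exposed arrays lay on the other side, at 26.4, 39.3 and 19.1, so the component separated the groups. Among marker genes of glioma and astroglial cells, 10 of 12 were measured and 0 passed in limma (2 at an unadjusted p under 0.05). Vimentin (VIM) lay between 10.4 and 10.6 on every array. The astrocyte filament GFAP lay between 4.79 and 4.93 on unexposed and between 5.05 and 5.31 on exposed arrays, without overlap (change 0.35, limma adjusted p = 0.143). S100B, also without overlap, was lower in exposed cells (change -0.42, limma adjusted p = 0.251). Its values, 3.38 to 3.87 on unexposed and 3.07 to 3.37 on exposed arrays, all lay below the array medians. Of the 10 changes 4 were positive and 6 negative.

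TLR3 stood at 5.78, 5.88 and 6.04 on the unexposed arrays and at 7.06, 7.21 and 6.52 on the exposed arrays (replicates 1, 2 and 3). All exposed values lay above all unexposed ones, but exposed replicate 3 was well below the other exposed arrays. The means were 5.90 ± 0.13 and 6.93 ± 0.36 (SD, n = 3 each), a difference of 1.03 (SE 0.17) or 2.04-fold. In unexposed cells 75.5% to 77.7% of all probe sets had lower values than TLR3, and in exposed cells 81.7% to 86.8%.

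IFIH1 had a low signal in unexposed cells, near the array medians of 3.96 to 3.99. In these cells 49.7% to 56.7% of all probe sets had lower values than IFIH1. It stood at 4.18, 3.95 and 4.35 on the unexposed arrays and at 4.95, 5.13 and 5.01 on the exposed arrays. The exposed arrays were close together, within 0.18, and the lowest of them lay 0.60 above the highest unexposed array. The difference was 0.87 (SE 0.14), or 1.83-fold, between means of 4.16 ± 0.20 and 5.03 ± 0.09 (SD, n = 3 each).

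RIGI had the smallest difference of the 5 genes and the tightest exposed values. Its unexposed values were 7.13, 6.90 and 7.06 and its exposed values 7.60, 7.57 and 7.47, again without overlap. The means were 7.03 ± 0.12 and 7.55 ± 0.07 (SD, n = 3 each), a difference of 0.52 (SE 0.08) or 1.43-fold.

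UBA7 had the largest difference. It stood at 6.14, 5.82 and 6.18 in unexposed and at 7.22, 7.18 and 6.93 in exposed cells, and the gap of 0.75 between the lowest exposed and the highest unexposed array was the widest among the 5. Its means were 6.05 ± 0.20 and 7.11 ± 0.16 (SD, n = 3 each), which differ by 1.06 (SE 0.13) or 2.09-fold.

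XAF1 was nearly constant among the unexposed arrays, at 5.42, 5.33 and 5.37, and spread over 0.64 among the exposed arrays, at 6.19, 6.53 and 5.89. Exposed replicate 3 was the lowest exposed array and still lay 0.47 above every unexposed one. The means of 5.37 ± 0.05 and 6.20 ± 0.32 (SD, n = 3 each) differ by 0.83 (SE 0.15), or 1.78-fold.

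**Figure D1:**
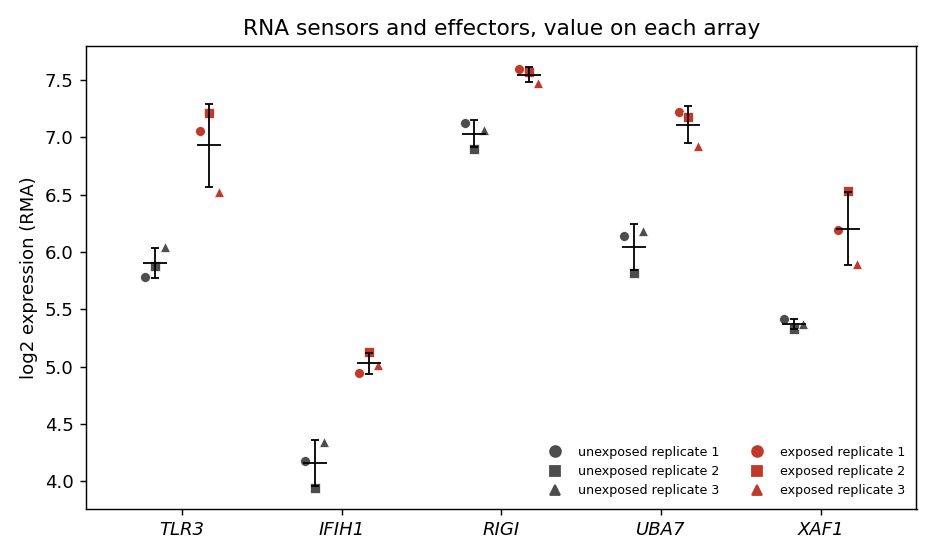
Log2 expression (RMA) of TLR3, IFIH1, RIGI, UBA7 and XAF1 on each of the 6 arrays, with grey symbols for unexposed and red symbols for exposed cells, shapes for replicate numbers, and bars for mean ± SD (n = 3 each). For all 5 genes the exposed arrays lie above the unexposed arrays. TLR3 has exposed replicate 3 well below the other exposed arrays, and XAF1 has exposed values spread apart with replicate 3 lowest.

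In order of the difference between the groups the genes run UBA7 (1.06), TLR3 (1.03), IFIH1 (0.87), XAF1 (0.83) and RIGI (0.52). Neighbours down to XAF1 differ by no more than about 1 SE. The 95% intervals, given as a description, run from 0.32 to 0.71 for RIGI and from 0.77 to 1.36 for UBA7. Among the rises of all 14884 genes these have ranks 10, 14, 34, 42 and 221. All 5 passed the limma threshold (Benjamini-Hochberg adjusted p of at most 0.05) upward, as did 1.40% of all genes (3.06% passed in either direction), and all 5 had exposed values wholly above the unexposed ones, as did 13.2% of all genes. Since this contrast chose the genes, neither count is a result about them. When p-values were adjusted over all 53617 probe sets in place of genes, where 0.705% passed, TLR3 and XAF1 did not pass.

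The 5 genes did not follow 1 common order across the arrays. Exposed replicate 3 was the lowest exposed array for 4 of them, the exception being IFIH1, whose lowest was exposed replicate 1. Unexposed replicate 2 was the lowest unexposed array for 4 of them, the exception being TLR3, whose lowest was unexposed replicate 1. Relative to each gene's unexposed mean, exposed replicate 3 stood at 0.88 for UBA7 and 0.85 for IFIH1 but at 0.62 for TLR3, 0.52 for XAF1 and 0.44 for RIGI. Without exposed replicate 3 the differences were 1.23 for TLR3, 0.99 for XAF1, 1.15 for UBA7, 0.55 for RIGI and 0.88 for IFIH1. Without unexposed replicate 2, the array farthest out on the first component, they were 1.02, 0.81, 0.95, 0.45 and 0.77 in the same order. With either array left out, RIGI had the smallest difference and TLR3 the largest.

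**Figure D2:**
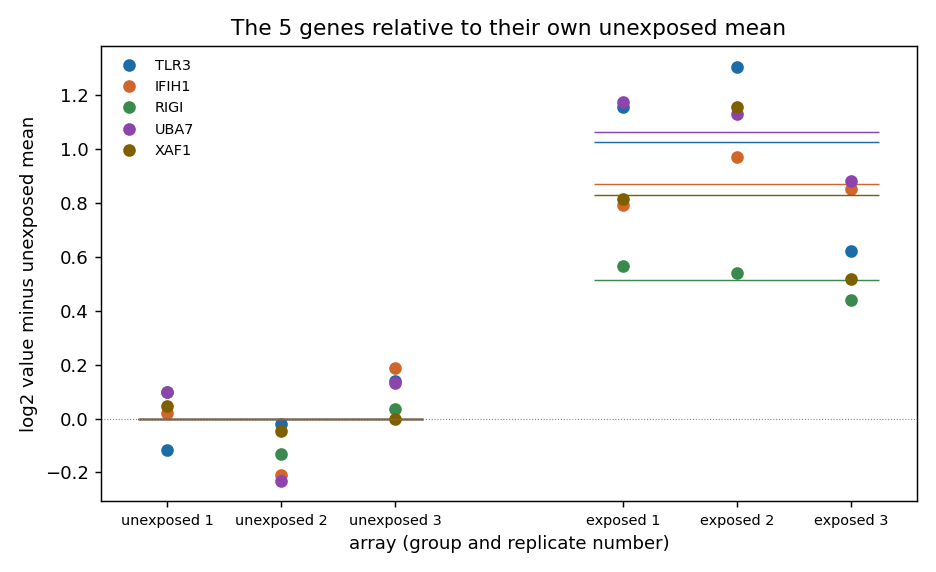
Log2 value of each of the 5 genes on each array minus the gene's mean over the unexposed arrays, with the arrays named by group and replicate number on the horizontal axis and the group means as thin lines. On exposed replicate 3 UBA7 and IFIH1 stand at 0.88 and 0.85, TLR3 and XAF1 at 0.62 and 0.52 and RIGI at 0.44.

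Likeness was measured as the root-mean-square difference between the 6 values of a gene and those of another, each centred on its own mean, over all genes. The nearest genes to TLR3 were the noncoding PAX8-AS1 (0.13), the growth factor gene FGF7 (0.14) and XAF1 (0.15), and UBA7 was at place 9 with 0.18. XAF1 itself was nearest to the junctional adhesion molecule gene JAM2 (0.047), the complement gene C3 (0.090) and the noncoding LINC01278 (0.097). UBA7 was nearest to the lysosomal peptidase gene TPP1 (0.079), the cytokine gene CSF1 (0.086) and HCFC1R1 (0.092), with IFIH1 at place 12. IFIH1 was nearest to CADPS2 (0.091), a gene of vesicle secretion, ELMO2 (0.097) and TBCK (0.098), with UBA7 at place 28. RIGI was nearest to CCN3 (0.034), a gene of the extracellular matrix, the peroxisome gene PEX6 (0.037) and the cyclophilin gene PPIC (0.042). The measure includes the difference between the groups, so it mainly joins genes of a like size of difference, and RIGI and TLR3, with differences of 0.52 and 1.03, lay 0.33 apart.

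The promoters of the sensors and of XAF1 are shown because interferon acts on such genes through short repeats of GAAA. The RefSeq promoter table (build GRCh38.p14) held 4 of the 5 genes. Each sequence below runs from 250 bases before the start site to 25 bases after it, 5′ to 3′ on the strand of the gene, and capitals mark GAAA repeats read on either strand with 2 bases of any kind between them (GAAA, 2 bases, GAAA) or with 1 base between them (GAAANGAAA). TLR3 is on the plus strand at chr4:186068906-186069180, IFIH1 on the minus strand at chr2:162318660-162318934, RIGI on the minus strand at chr9:32526172-32526446 and XAF1 on the plus strand at chr17:6755796-6756070.
TLR3: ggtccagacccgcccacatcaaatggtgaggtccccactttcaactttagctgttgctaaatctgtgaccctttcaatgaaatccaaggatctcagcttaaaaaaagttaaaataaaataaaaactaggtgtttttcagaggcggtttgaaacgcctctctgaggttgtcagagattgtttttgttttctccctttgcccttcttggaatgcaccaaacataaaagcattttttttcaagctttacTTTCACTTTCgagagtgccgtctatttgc
IFIH1: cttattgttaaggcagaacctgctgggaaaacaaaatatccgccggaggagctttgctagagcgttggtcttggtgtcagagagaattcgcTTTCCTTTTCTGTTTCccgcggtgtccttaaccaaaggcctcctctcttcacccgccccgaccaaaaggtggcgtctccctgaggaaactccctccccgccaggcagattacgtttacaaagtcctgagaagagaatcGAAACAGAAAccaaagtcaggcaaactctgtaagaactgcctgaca
RIGI: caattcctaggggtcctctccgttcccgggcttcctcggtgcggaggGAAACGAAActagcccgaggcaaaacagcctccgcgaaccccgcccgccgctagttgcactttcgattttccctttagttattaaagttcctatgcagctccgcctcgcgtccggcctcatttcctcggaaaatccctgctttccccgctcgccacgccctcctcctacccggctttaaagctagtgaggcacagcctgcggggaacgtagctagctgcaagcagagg
XAF1: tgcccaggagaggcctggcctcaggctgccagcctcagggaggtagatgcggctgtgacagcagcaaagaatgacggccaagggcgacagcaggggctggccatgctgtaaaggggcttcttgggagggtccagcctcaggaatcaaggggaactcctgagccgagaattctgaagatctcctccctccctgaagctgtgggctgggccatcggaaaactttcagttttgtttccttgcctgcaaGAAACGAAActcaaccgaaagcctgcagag

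The 2-base spacing, the core of the interferon-stimulated response element, was found in 3.57% of all 35116 promoter windows (250 bases before and 50 after the start site, both strands). IFIH1 holds this repeat 3 times, at -159 to -150 and, overlapping that, at -153 to -144 on the opposite strand, and at -21 to -12 on its own strand. TLR3 holds it once, across its start site at -4 to 6 on the opposite strand. RIGI and XAF1 do not hold the 2-base spacing in these windows. They hold the 1-base spacing GAAANGAAA, at -203 to -195 in RIGI and at -5 to 4 in XAF1, a motif that was searched after the sequences had been seen and that stands in 3.12% of all windows. A further XAF1 window in the table, which starts upstream, holds neither spacing. Of the measured genes other than these 5 that the table holds, 10 of 416 with the 2-base spacing rose (2.40%), against 143 of 10329 without it (1.38%), and the median log2 changes were 0.017 and -0.00038. Among measured effectors alone 3 of 23 with it rose and 2 of 9 without it, with median log2 changes of 0.16 and 0.16. For the 1-base spacing the shares that rose were 1.58% of 380 genes with it and 1.42% of 10365 without it. The differences between these shares were not tested, and a match is a description of the sequence and not evidence of binding.

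The rest of the pathway was read from lists ordered by role, which leave out the 5 genes. Of 251 genes on the lists 139 were measured, of which 6 rose, 3 fell and 130 did not pass in limma. The 6 that rose were all on the list of interferon-stimulated effectors. The median log2 change over the 139 genes was 0.05, beside 0.0029 over all genes, and 4.32% of them rose, beside 1.40% of all genes.

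Among the other sensors of RNA and DNA 0 of 12 measured genes passed in limma, and 1 had an unadjusted p under 0.05. That gene was the helicase DHX36, with a change of -0.19 (SE 0.07). DHX58 (LGP2), the relative of RIGI and IFIH1 that lacks signalling domains, was at 4.59 ± 0.09 in unexposed and 4.64 ± 0.11 in exposed cells (SD, n = 3 each). Its change of 0.05 had a 95% interval of -0.22 to 0.32, and the groups overlapped. EIF2AK2 (PKR), a kinase activated by double-stranded RNA, had a change of 0.12 and an interval of -0.04 to 0.29. The endosomal receptors TLR7 (-0.16, interval -0.62 to 0.31) and TLR9 (0.03, interval -0.32 to 0.37) did not pass. TLR7, with means of 2.65 and 2.49, lay below the array medians of 3.96 to 3.99, as did further genes of this list. At such low signal a change could be missed. DDX60 (0.18) and LRRFIP1 (-0.14), cofactors of RNA sensing, did not pass either. The list's median was -0.10, with 5 positive and 7 negative values.

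Of 23 measured adaptors and signalling proteins downstream of the sensors 0 passed in limma, and 5 had an unadjusted p under 0.05. MAVS, the adaptor of RIGI and IFIH1, differed by 0.11 (interval -0.04 to 0.25). TICAM1, the adaptor of TLR3, stood at 6.42, 6.52 and 6.49 in unexposed and 6.63, 6.80 and 6.67 in exposed cells, without overlap. Its change of 0.22 (SE 0.08) did not pass (limma adjusted p = 0.181). The ubiquitin ligase TRAF3 had the smallest p of the list, with a change of -0.32 (SE 0.09, limma adjusted p = 0.110), followed by the kinase CHUK with -0.26. TBK1 (0.05) and TRADD (0.18) did not pass. The list's median was -0.07, and 15 of its 23 values were negative. Exposed values lay wholly below the unexposed ones for 6 of the 23, beside 13.8% of all genes.

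Proteins that tune RIGI and IFIH1 showed 0 of 16 past the threshold in limma, with 3 at an unadjusted p under 0.05. TRIM25, a ubiquitin ligase that activates RIGI, had a change of 0.07 (interval -0.09 to 0.22). TRIM65, a ubiquitin ligase that activates IFIH1, had a change of -0.33 (SE 0.09, limma adjusted p = 0.0873), with 7.24, 7.22 and 7.40 in unexposed and 7.06, 6.96 and 6.84 in exposed cells. The kinases CAMK2D (-0.23) and DAPK1 (0.35) and the deubiquitinase CYLD (0.14) did not pass.

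Transcription factors that induce interferon gave 0 of 18 past the threshold in limma and 6 at an unadjusted p under 0.05. IRF3 stood at 7.32, 7.17 and 7.22 in unexposed and 7.52, 7.53 and 7.36 in exposed cells, a change of 0.23 (SE 0.08, limma adjusted p = 0.159). IRF7, itself induced by interferon, differed by 0.25 (interval -0.09 to 0.60). IRF1 (0.18) and IRF9 (0.15), further members of the interferon regulatory factor family, did not pass. The smallest p belonged to ATF2 at 0.42 (SE 0.10, limma adjusted p = 0.0648), and HMGA1 (-0.30) and EP300 (-0.21) were lower without passing. The 22 interferon ligand genes on the lists, IFNB1 among them, carried no name in the annotation used and were not analysed here, nor were the receptor genes IFNAR1 and IFNAR2.

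Of 9 measured receptor and JAK-STAT genes SOCS3 fell and 8 did not pass. SOCS3, a feedback inhibitor of cytokine receptors, went from 9.34, 9.23 and 9.32 to 8.82, 8.91 and 8.97, a change of -0.39 (SE 0.06, limma adjusted p = 0.0312). Downward calls covered 1.67% of all genes. A further probe set of SOCS3 had a change of -0.13 (SE 0.10) and did not pass. SOCS1, the relative that inhibits JAK kinases in interferon signalling, had a positive value of 0.43 (SE 0.14, limma adjusted p = 0.147). The kinases JAK1 (0.20) and TYK2 (0.20), which serve the interferon receptor, did not pass, with adjusted p in limma of 0.145 and 0.254. SOCS3 was not called when its probe sets were averaged.

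**Figure D3:**
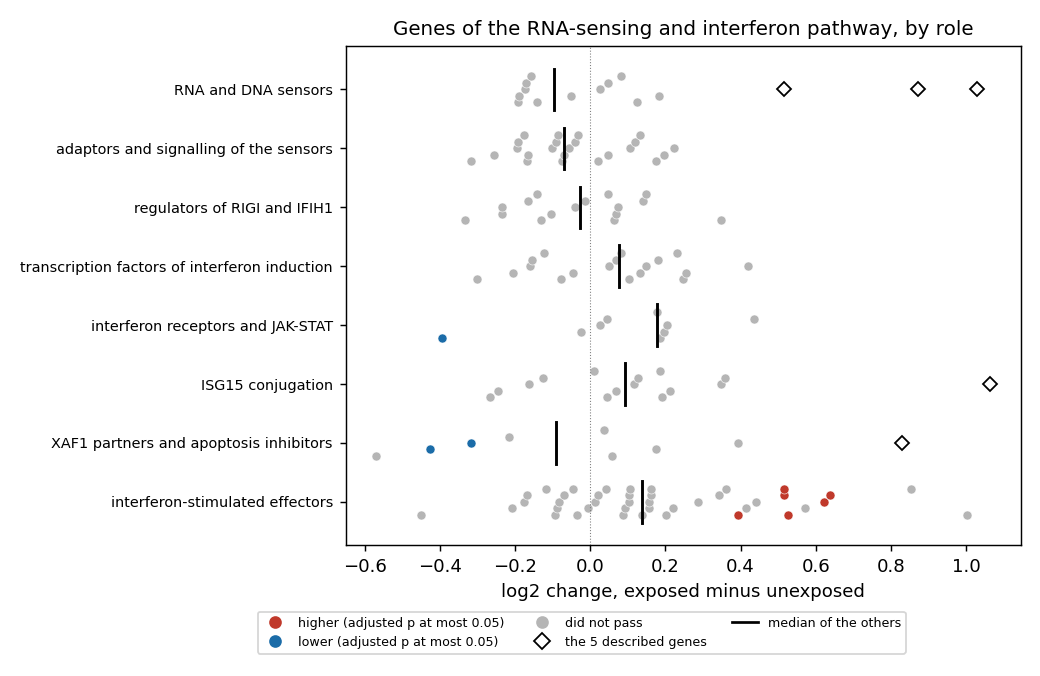
Log2 change (exposed minus unexposed) of every measured gene of the 8 lists with measured genes, 1 row per role, with red for genes that rose, blue for genes that fell, grey for genes that did not pass, black bars for list medians and open diamonds for the 5 described genes, which the medians leave out. The red points, 6 in all, lie in the row of interferon-stimulated effectors, and the diamonds lie to the right of all other genes of their rows.

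The other enzymes of the UBA7 route had smaller changes than UBA7, and none was called. Of the 14 other measured genes of ISG15 conjugation and related activating enzymes 0 passed in limma, and 5 had an unadjusted p under 0.05. UBE2L6, the conjugating enzyme that takes ISG15 from UBA7, stood at 6.89, 6.71 and 6.68 in unexposed and 7.09, 7.21 and 7.05 in exposed cells. Its change was 0.36 (SE 0.09, limma adjusted p = 0.0709). HERC5, the main ligase for ISG15, had a change of 0.35 (SE 0.10, limma adjusted p = 0.110), and its relative HERC6 one of 0.21. ISG15 itself stood at 6.57, 6.63 and 6.59 in unexposed and at 6.83, 6.77 and 6.75 in exposed cells, a change of 0.19 (interval 0.02 to 0.35). The groups did not overlap for any of these 4 genes, and over the list 6 of 14 had exposed values wholly above the unexposed ones, beside 13.2% of all genes. USP18, the protease that removes ISG15, had a change of 0.04 (interval -0.33 to 0.42) with overlapping groups. UBA1, the activating enzyme of ubiquitin, had a change of 0.12 (interval -0.03 to 0.26). USP16 (-0.27) and UBE2E2 (-0.16) were lower without passing.

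Around XAF1, 2 of 8 measured partners and apoptosis inhibitors fell, beside 1.67% of all genes, and 6 did not pass. BIRC2 (cIAP1), an inhibitor of apoptosis and a ligase in tumour necrosis factor signalling, stood at 7.96, 8.21 and 8.09 in unexposed and 7.75, 7.56 and 7.66 in exposed cells. Its change was -0.43 (SE 0.09, limma adjusted p = 0.0445). BIRC6, a large ligase that also inhibits caspases, changed by -0.32 (SE 0.06, limma adjusted p = 0.0442), with the groups again apart. XIAP, the protein XAF1 was named for, differed by -0.22 (interval -0.48 to 0.05). BIRC5 (survivin), a protein of dividing cells, had a change of -0.57 (SE 0.12, limma adjusted p = 0.0509). HTRA2, a mitochondrial protease that counters these inhibitors, was at 0.39 (SE 0.09, limma adjusted p = 0.0582), and SEPTIN4 at 0.18.

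Among interferon-stimulated effectors 6 of 41 measured genes rose, 0 fell and 35 did not pass, and 14 had an unadjusted p under 0.05. The 6 are 14.6% of the list, beside 1.40% of all genes. Exposed values lay wholly above the unexposed ones for 18 of the 41, beside 13.2% of all genes. DTX3L, a ubiquitin ligase that works with PARP9, went from 8.27, 8.24 and 8.30 to 8.76, 8.93 and 8.69, a change of 0.52 (SE 0.07, limma adjusted p = 0.0298). SAMD9L, which restricts poxviruses, rose by 0.62 (SE 0.11) from 7.98, 7.65 and 7.77 to 8.43, 8.57 and 8.27. SAMHD1, which depletes the nucleotides that viruses need, rose by 0.39 (SE 0.08). The antiviral ligase TRIM22 rose by 0.52 (SE 0.09), and TRIM21, a cytoplasmic antibody receptor, by 0.53 (SE 0.10). IFITM3, a membrane protein that blocks viral entry, rose by 0.64 (SE 0.12) from values between 5.81 and 6.15 to values between 6.49 and 6.76. It belongs to a family of close copies, so its signal is uncertain as to the member, and IFITM2 was at -0.18. With p-values adjusted over all probe sets, DTX3L and SOCS3 remained of the 9 genes called.

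Several classical interferon-stimulated genes stood higher in all exposed arrays without passing the threshold. IFIT1 stood at 3.43, 3.28 and 3.39 in unexposed and at 5.02, 4.21 and 3.88 in exposed cells. Its groups did not overlap, but exposed replicate 1 lay far above the others, and the change of 1.00 (SE 0.27) did not pass (limma adjusted p = 0.0926). IFI44L differed by 0.85 (SE 0.18, limma adjusted p = 0.0510), and IFIT2 and IFIT3, of the same family as IFIT1, by 0.57 and 0.41 (limma adjusted p = 0.0707 and 0.115), all without overlap. Values near or below 0 were found too. IFI44 (-0.07), MX2 (0.11) and OASL (0.10) did not pass, and their groups overlapped. RSAD2 (viperin), which blocks viral replication, differed by 0.01 (interval -0.39 to 0.41), between means of 3.39 and 3.41. GBP5, a GTPase induced mainly by interferon gamma, had a change of -0.45 (limma adjusted p = 0.312), from a mean of 3.16 to 2.71. RSAD2 and GBP5 lay below the array medians of 3.96 to 3.99, as did IFIT1 on the unexposed arrays and on exposed replicate 3. At such low signal a change in RSAD2 or GBP5 could be missed. MX1 and OAS1 were not analysed here. The list's median was 0.14, with 29 positive and 12 negative values, and its mean level lay between 5.46 and 5.49 on the unexposed and between 5.64 and 5.68 on the exposed arrays.

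**Figure D4:**
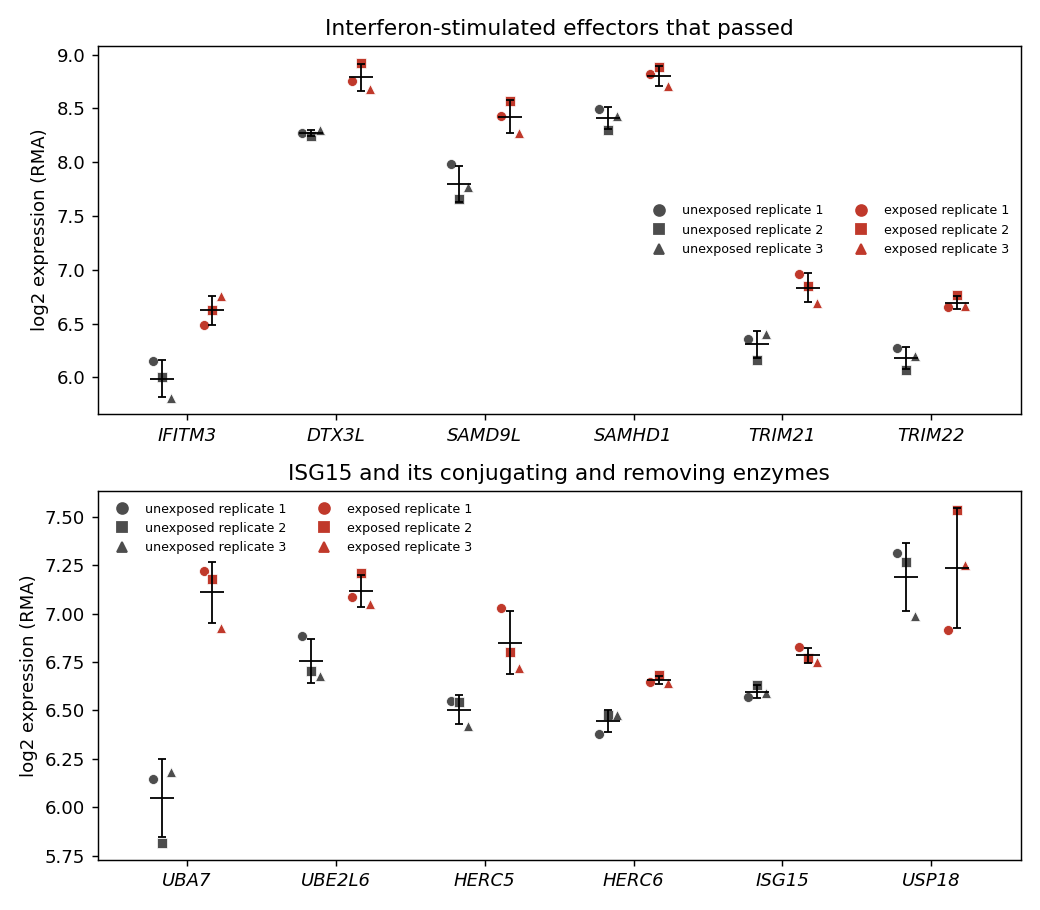
Log2 expression (RMA) by array of the 6 interferon-stimulated effectors that rose (upper panel) and of UBA7, UBE2L6, HERC5, HERC6, ISG15 and USP18 (lower panel), with grey for unexposed and red for exposed cells, shapes for replicate numbers and bars for mean ± SD (n = 3 each). In the lower panel the groups are apart for every gene except USP18, whose exposed values run from 6.92 to 7.54.

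The calls for these 9 genes, like those over all genes, mostly did not hold with 1 array left out. Without exposed replicate 3, 5 of the 9 remained (DTX3L, SAMD9L, SAMHD1, TRIM21 and SOCS3) and HMGA1 was called lower besides. With any of the other 5 arrays left out 0 of the 139 genes were called in limma, while 32 to 37 had an unadjusted p under 0.05. In those runs the adjusted p of the 9 lay between 0.0523 and 0.154. Over all 14884 genes, 67 were called without unexposed replicate 1 and 0 in the rest of those runs. The changes of the 9 kept their sign with each array left out, with 0.449 to 0.569 for DTX3L and -0.491 to -0.365 for BIRC2. The 9 were called on this contrast, so their stable sign is a description. After each array was centred on its ribosomal protein genes, 5 of the 9 remained. SOCS3, BIRC2, BIRC6 and SAMHD1 did not pass, with adjusted p in limma of 0.0857, 0.0605, 0.158 and 0.0608. BIRC5 was newly called lower and HTRA2 and IFI44L higher in that run, which called 8 of the 139 genes. Of 10 markers of microglia and macrophages 6 were measured, PTPRC and AIF1 not among them, and all 6 had positive changes. Of these 0 passed in limma and 1 had an unadjusted p under 0.05. Their mean level lay between 3.94 and 4.08 on unexposed and between 4.26 and 4.33 on exposed arrays, and the largest change was that of TMEM119 (0.65, limma adjusted p = 0.0835). Of the 4 measured fibroblast and mesenchymal markers the matrix gene LUM rose, by 0.83 (SE 0.12). The others did not pass, with the matrix gene FN1 at -0.17 (limma adjusted p = 0.148), DCN at 0.28 and THY1 at 0.03. Of the marker lists of dendritic cells and lymphocytes, neurons, oligodendrocytes, endothelial cells and epithelial cells, 15 genes in all were measured, of which 0 passed and 1 had an unadjusted p under 0.05. The part of such markers in the differences was not tested.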

How the data were processed

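Values were read from the deposited table, which holds 1 log2 value per probe set for each of 6 arrays, made by the authors with RMA, per the submitters' processing notes. The notes list the Expression Console 3.0 and the Transcriptome Analysis Console 3.0; which settings and genome build were used is not given in the sources here. Values ran from 0.460 to 13.8, as a log2 scale would. RMA equalises the arrays, so a change in total RNA per cell would not show. Precision is limited by the number of arrays.

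Of 53617 probe sets 16098 carry 1 gene symbol, 0 carry several and 37519 are unnamed here. Each of 14884 genes is represented by its brightest probe set. Exposed and unexposed arrays were compared by limma 3.58.1 (R 4.3.3; linear models with eBayes and its mean-variance trend; two-sided; no covariate), fitted over all probe sets, with Benjamini-Hochberg adjustment over genes and a threshold of 0.05. SE and 95% intervals come from that fit. Tables and figures used Python 3.11.15, pandas 2.3.3 and matplotlib 3.10.9.

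The members, the pathway lists and the marker lists were chosen with earlier results of these data known. Named genes are the members, up to 6 called genes per list and direction, the 2 genes per list and direction with the smallest p, a set of key genes given however they moved, and the 3 genes most like each member. IFI44, IFI44L, IFIT2, IFIT3, MX2, OASL, LUM, FN1, DCN, THY1, TMEM119, VIM, GFAP and S100B were added after their values were seen.

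The procedure was tested on simulated data. Of 3 promoter motifs searched, 1 is not reported here. The alternatives were a replicate block, repeated quantile normalization, centring on 53 ribosomal protein genes, no trend, a filter on dim probe sets, averaged probe sets, and each array left out.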

Additional observations from a re-analysis of the deposited data

How the results depend on the processing

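The differences of TLR3, IFIH1, RIGI, UBA7 and XAF1 kept their sign in the alternative runs and moved by less than 1 SD of the replicates. The replicate block, the filter on dim probe sets and averaged probe sets could not move them. The design is balanced, and each of these genes has 1 probe set. The run without a trend was left out of this comparison. These genes were chosen on this contrast, so their stable sign is a description. With each array left out in turn they ranged from 0.889 to 1.23 for TLR3, 0.767 to 0.968 for IFIH1, 0.449 to 0.565 for RIGI, 0.948 to 1.15 for UBA7 and 0.667 to 0.986 for XAF1.

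The calls were less stable. In limma 456 of 14884 genes, 9 of 139 pathway genes and 6 of 41 effectors passed. With the replicate block the counts were 0, 0 and 0 (2286, 34 and 13 at an unadjusted p under 0.05), and without a mean-variance trend also 0, 0 and 0 (2220, 30 and 14). Over probe sets above the median level, where fewer genes were tested, they were 753, 15 and 8. With each array left out they ranged from 0 to 325, from 0 to 6 and from 0 to 4. The replicate numbers did not pair the arrays: deviations of same-numbered arrays from their group means had correlations of -0.025 to 0.0096.

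Sign changes came from genes near 0. With each array left out RSAD2 ran from -0.102 to 0.110, USP18 from -0.106 to 0.204, TLR9 from -0.0732 to 0.138, TLR7 from -0.267 to 0.0314 and SEPTIN4 from -0.0197 to 0.335. IFNGR2 ran from -0.0814 to 0.0521 and went from -0.0256 to 0.0530 with centring on ribosomal protein genes, which moved the median of all genes to 0.0815. Other causes were not tested.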
